A study of Mus musculus with 6 samples.

Results

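The complement components and receptors described here are 9 genes: C1qa, C1qb, C1qc, C3, C4b, Cfp, C3ar1, C5ar1 and Serping1. They were taken by name from the 55401 genes of a count table of mouse spinal cord microglia. Each Ensembl identifier was matched to its symbol. No cut-off on a measured value was applied, but earlier results of these data were known when the genes were chosen. All 9 were found, and 8 were among the 16248 genes that passed the filter on low counts. Serping1 did not pass.

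The libraries came from 2 groups of untreated mice aged 7 months. The NTg group was non-transgenic C57BL/6. The ATXN2-Q33;TDP-43 group was heterozygous for both human alleles, hATXN2-Q33 and hTDP-43, which the genotype label calls knock-in. The word mutant below is only a short name for this group. Each group had 3 libraries from 9 animals, and each library was a separate pool of microglia from 3 spinal cords, so the animals within a pool cannot be told apart. Cells were captured with beads against CD11b, the product of Itgam, which other myeloid cells also carry. The promoter that drives the human alleles is not given in the sources used here. The file headers call the alignments of NTg libraries 7 and 9 combined, and that of no mutant library. What was combined is not given.

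Complement is a cascade of plasma and tissue proteins that tags surfaces for uptake. The classical pathway starts when C1q, a bundle of A, B and C chains, binds a surface and activates the proteases that cleave C4 and C2, and then C3. The alternative pathway, which properdin stabilises, amplifies the cleavage of C3. Small fragments released from C3 and C5 signal to receptors on myeloid cells. In the central nervous system microglia are the main source of C1q, and C1q and C3 are known for marking synapses that microglia then engulf.

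Library totals ran from 12553570 to 22854628 counts. The 15 microglia markers checked had counts in each of the 6 libraries, and their summed level ran from 13533 to 19667 CPM (counts per 1000000, on TMM-scaled library sizes). Other cell types were present as well. The summed level of 13 neutrophil markers was 1269, 754 and 978 CPM in NTg libraries 7, 9 and 11, versus 2413, 1682 and 668 CPM in mutant libraries 8, 10 and 12. Csf3r alone made up 46.8% of this sum on average and varied little between libraries. Without it, a choice made after seeing the data, the other 12 markers ran from 58.2 CPM in library 12 to 1756 CPM in library 8. Over all genes, edgeR's quasi-likelihood test called 0 of 16248 genes between the genotypes (0%) at a Benjamini-Hochberg adjusted p below 0.05, and 368 (2.26%) had an unadjusted p below 0.05. DESeq2 called 7 genes (0.0431% of those with an adjusted p) and limma voom 0. The mouse counterparts of the human alleles, Tardbp and Atxn2, had log2 fold changes of 0.05 and 0.09. No human sequence was counted, so these values do not check the genotype labels.

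The 3 C1q genes lie side by side on chromosome 4 of mm10, on the minus strand, within 18675 bases. C1qb (ENSMUSG00000036905) spans chr4:136880129-136886187, C1qc (ENSMUSG00000036896) spans chr4:136889804-136893065 and C1qa (ENSMUSG00000036887) spans chr4:136895917-136898803. The gap between C1qb and C1qc is 3616 bases and that between C1qc and C1qa is 2851 bases. None of their exons overlapped an exon of another gene on either strand. Stretches upstream of the start are shown for C1qb and C1qc, whose levels varied with those of C1qa across the libraries, and for C3, whose level did not. They come from RefSeq, build GRCm38.p6, whose promoter table held 6 of the 9 genes; C1qa, C4b and Serping1 are named only. Capitals mark the searched motifs, and each sequence is written 5′ to 3′ on the minus strand. The window is the 250 bases before the RefSeq start. Bases that lie inside the gene as the deposited table draws it are not printed, which leaves 99 bases of the C1qc window.
C1qb, chr4:136886201-136886450: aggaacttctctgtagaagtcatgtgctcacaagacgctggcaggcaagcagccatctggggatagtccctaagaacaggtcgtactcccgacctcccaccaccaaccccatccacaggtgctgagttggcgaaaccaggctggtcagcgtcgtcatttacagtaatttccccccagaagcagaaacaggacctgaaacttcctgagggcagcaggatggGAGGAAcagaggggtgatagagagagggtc
C1qc, chr4:136893066-136893164: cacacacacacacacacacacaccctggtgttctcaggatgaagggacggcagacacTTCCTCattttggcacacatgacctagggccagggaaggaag
C3, chr17:57228137-57228386: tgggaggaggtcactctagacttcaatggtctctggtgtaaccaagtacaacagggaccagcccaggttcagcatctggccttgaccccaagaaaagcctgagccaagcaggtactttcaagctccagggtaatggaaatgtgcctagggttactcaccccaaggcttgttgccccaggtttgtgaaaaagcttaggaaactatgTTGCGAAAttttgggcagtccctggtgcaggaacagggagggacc

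Motifs of 3 factors that are active in myeloid cells were searched on both strands of the whole 250 bases, printed or not, in each of the 6 genes and in all promoters. The PU.1 core GAGGAA stood at -30 from the RefSeq start in C1qb and, on the other strand, read as TTCCTC, at -193 in C1qc. It was in neither C3, C3ar1, C5ar1 nor Cfp, and 23.25% of 32851 promoters held it. The C/EBP motif TTGCNNAA stood at -45 in C3, against 9.564% of promoters. The MAF half-site TGCTGAC, held by 3.811% of promoters, was in none of the 6. A match is a description of the letters and does not show binding.

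The order of levels was compared per exon length, in RPKM (CPM per 1000 bases of exon). The C1q chains were among the most abundant transcripts of these libraries. C1qb stood at a mean of 1237 RPKM, rank 34 of the 16248 tested genes, C1qa at 1117 RPKM, rank 36, and C1qc at 632 RPKM, rank 65. The receptors followed, with C3ar1 at 121 RPKM and C5ar1 at 57.7 RPKM. The remaining components lay far lower: C3 at 8.90 RPKM, C4b at 3.59 RPKM, Cfp at 1.79 RPKM and Serping1 at 0.219 RPKM.

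Neighbours in this order were not all apart. C1qb exceeded C1qa in 6 of 6 libraries, but by a ratio of 1.11 on average, and their ranges over libraries overlapped. C3 exceeded C4b in 5 of 6 libraries, and their ranges overlapped. C4b exceeded Cfp in 6 of 6 libraries, although the ranges overlapped here too. The ranges of the other neighbouring pairs did not overlap. The level and rank of C1qc, and its separation from C1qa, depend on the exon length used. With coding transcript lengths the mean log2 ratio of C1qc to C1qa was -0.14 in place of -0.83.

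**Figure D1:**
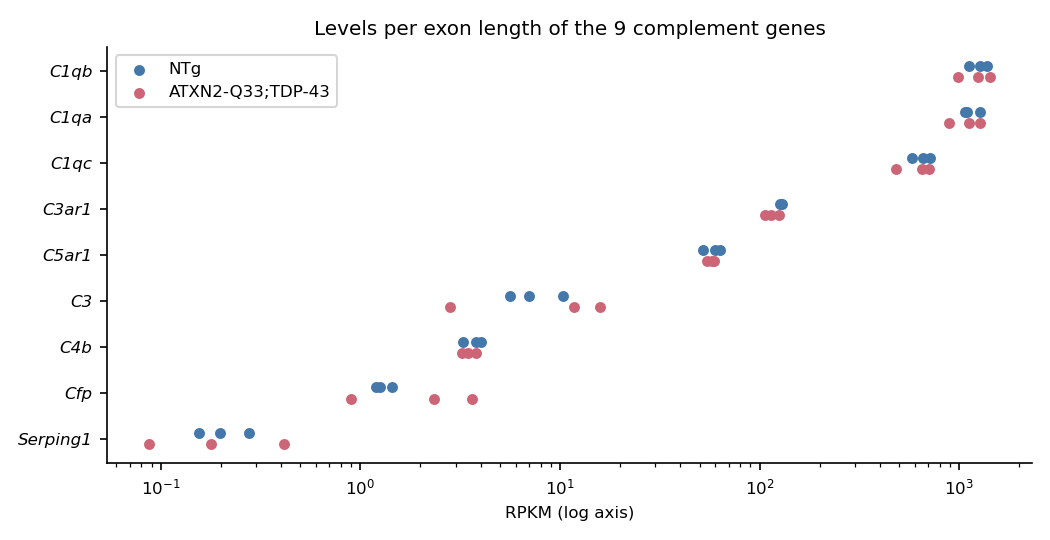
Level of the 9 complement genes per exon length (RPKM, log axis) in each of the 6 libraries, in order of the mean. Points are libraries coloured by genotype. The C1q chains sit between 482 and 1426 RPKM, and Serping1 lies below 0.415 RPKM in each library.

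C1qa encodes the A chain of C1q. Its level was 1140, 1116 and 1319 CPM in NTg libraries 7, 9 and 11, versus 1161, 922 and 1315 CPM in mutant libraries 8, 10 and 12. Library 10 was the lowest and the groups overlapped. The difference of ATXN2-Q33;TDP-43 from NTg was a log2 fold change of -0.07 with an SE of 0.14 (95% interval from -0.39 to 0.24, edgeR adjusted p = 0.9996).

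C1qb encodes the B chain, and stood at 1382, 1223 and 1493 CPM in NTg against 1349, 1074 and 1551 CPM in the mutants, in the same library order. Library 10 was again the lowest and library 12 the highest, both of the mutant group. Its log2 fold change of -0.04 had an SE of 0.14 and an interval from -0.37 to 0.28. C1qc, the C chain, stood at 1270, 1123 and 1377 CPM in NTg versus 1256, 931 and 1361 CPM in mutant libraries, and its log2 fold change of -0.09 had an SE of 0.15 and an interval from -0.43 to 0.25. The edgeR adjusted p was 0.9996 for each chain. As folds, the intervals ran from 0.763 to 1.18 for C1qa, from 0.774 to 1.22 for C1qb and from 0.745 to 1.19 for C1qc. Without mutant library 10 the log2 fold changes of the 3 chains were 0.054, 0.086 and 0.058, and without NTg library 11 those of C1qa and C1qb were 0.011 and 0.030. The direction of these small differences thus rested on single libraries.

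The 3 chains kept nearly fixed proportions. Per length, the ratio of C1qb to C1qa was 1.11 ± 0.0381 (SD, n = 6 libraries) and that of C1qc to C1qa was 0.565 ± 0.0227. The ratio of C1qc to C1qb was 0.518 ± 0.00134 in NTg and 0.502 ± 0.0193 in the mutants (n = 3 each, exact two-sided permutation p = 0.4, where 0.1 is the smallest possible). The C1qc values depend on the length used. The deposited exon length of C1qc is 1931 bases, while its longest coding transcript has 1203 bases. With coding transcript lengths the log2 ratio of C1qc to C1qa was -0.14 in place of -0.83. The length is the same in each library, so this choice does not alter the comparison between genotypes.

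Summed over the 3 chains, C1q made up between 0.307% and 0.411% of all counts in a library. The sum was 3792, 3462 and 4189 CPM in NTg versus 3766, 2927 and 4227 CPM in mutant libraries. The highest library was 1.44 times the lowest. The summed microglia markers varied alike, from 13533 CPM in library 10 to 19667 CPM in library 12, a ratio of 1.45. Libraries 9 and 10, the lowest in both sums, had the highest summed oligodendrocyte markers, at 1676 and 1172 CPM. The other libraries ran from 170 to 448 CPM for those markers, and their part in the C1q values was not tested. C1q per microglia marker CPM was 0.225, 0.228 and 0.218 in NTg and 0.226, 0.216 and 0.215 in the mutants, a spread of 1.06 times. The exact two-sided permutation p for this quotient was 0.3 (n = 3 and 3). In bulk libraries, fewer cells of a type and less RNA per cell cannot be told apart.

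**Figure D2:**
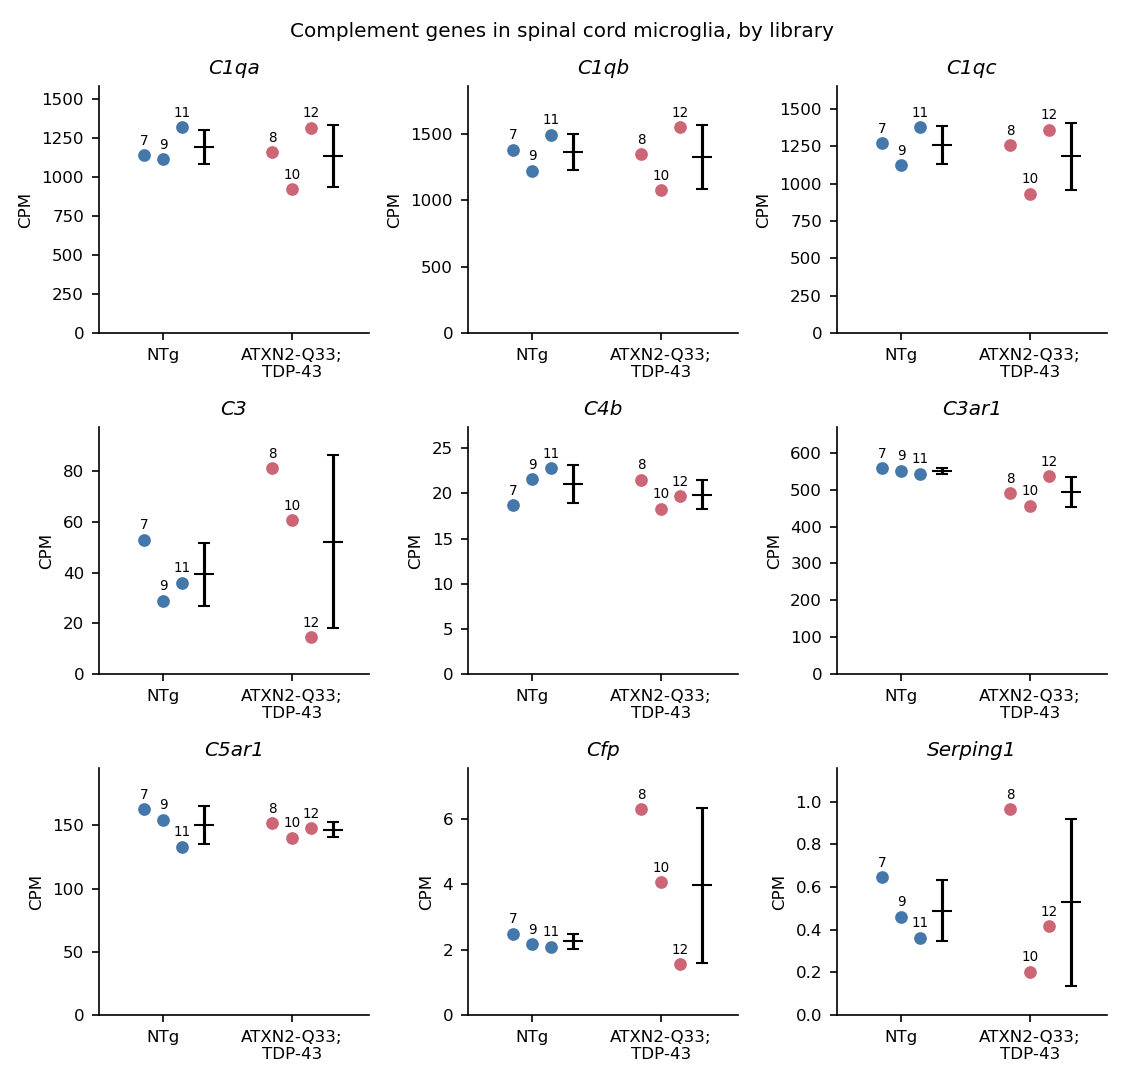
Level of each of the 9 genes in CPM in the 3 NTg and the 3 ATXN2-Q33;TDP-43 libraries, 1 panel per gene, with the mean and SD of each group. The groups of C3ar1 do not overlap, and those of the other 8 genes do.

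C3 encodes the central component, which every pathway cleaves. It lies at chr17:57203970-57228136 on the minus strand (ENSMUSG00000024164). Its level was 53.1, 29.0 and 36.1 CPM in NTg libraries 7, 9 and 11, and 81.2, 60.6 and 14.5 CPM in mutant libraries 8, 10 and 12. The highest and the lowest library both belonged to the mutant group, a ratio of 5.59. A log2 fold change of 0.40 with an SE of 0.68 resulted (95% interval from -1.39 to 2.20, edgeR adjusted p = 0.9996). It was -0.067 without mutant library 8 and 0.85 without mutant library 12, the latter at an unadjusted edgeR p of 0.0222 (edgeR adjusted p = 0.991). In that fit 798 of 16945 genes had an unadjusted p below 0.05. The spread of C3 within groups ranked at the percentile 98.6 of genes with at least 10 CPM.

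Cfp encodes properdin, the stabiliser of the alternative pathway's convertase, and lies at chrX:20925454-20931555 on the minus strand (ENSMUSG00000001128). Its counts were low: 31, 33 and 46 in NTg and 85, 60 and 30 in the mutants. In CPM these were 2.497, 2.17 and 2.09 against 6.31, 4.07 and 1.56. As with C3, libraries 8 and 10 were the highest and library 12 the lowest. Fitted over all 6 libraries, the log2 fold change of 0.81 had an SE of 0.47 and an interval from -0.25 to 1.88 (edgeR adjusted p = 0.9996). It was 0.32 without mutant library 8 and 1.21 without mutant library 12 (unadjusted p 0.00698, edgeR adjusted p = 0.854).

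The summed neutrophil markers varied with both genes. From high to low, the libraries stood in the order 8, 10, 7, 11, 9, 12 for C3, which is the order of the summed neutrophil markers, and 8, 10, 7, 9, 11, 12 for Cfp. All 13 neutrophil markers were detected in each library, with a median log2 fold change of 1.22 and positive values for 13 of 13. Over all tested genes 48% had a negative value. Of the 13 markers, 0 had an unadjusted edgeR p below 0.05, and the interval of each included 0. The exact two-sided permutation p of their sum was 0.4, and mutant library 12 had the lowest sum. Monocyte markers summed to 73.1, 64.6 and 83.3 CPM in NTg versus 171, 143 and 42.2 CPM in mutant libraries. Per 1000 CPM of neutrophil markers, C3 was 41.8, 38.4 and 36.9 CPM in NTg versus 33.7, 36.0 and 21.8 CPM in mutant libraries. The same quotient for Cfp was 1.97, 2.88 and 2.14 CPM in NTg versus 2.61, 2.42 and 2.33 CPM in mutant libraries. These quotients rest on Csf3r, the receptor of granulocyte colony-stimulating factor, which made up 46.8% of the sum and varied little, from 569 to 658 CPM. From high to low its libraries stood in the order 8, 7, 12, 10, 9, 11, which is not that of the sum. Without Csf3r, a choice made after seeing the data, the other 12 markers summed to 655, 170 and 409 CPM in NTg versus 1756, 1084 and 58.2 CPM in mutant libraries. Their sum put the libraries in the same order as the sum of all 13. C3 per 1000 CPM of that sum was 81.1, 170 and 88.3 CPM in NTg versus 46.3, 55.9 and 250 CPM in mutant libraries, so library 12 passed from the lowest to the highest. For Cfp it ran from 3.59 CPM in library 8 to 26.8 CPM in library 12. Neither gene thus kept a fixed proportion to those 12 markers. The part of other myeloid cells in the C3 and Cfp values was not tested.

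**Figure D3:**
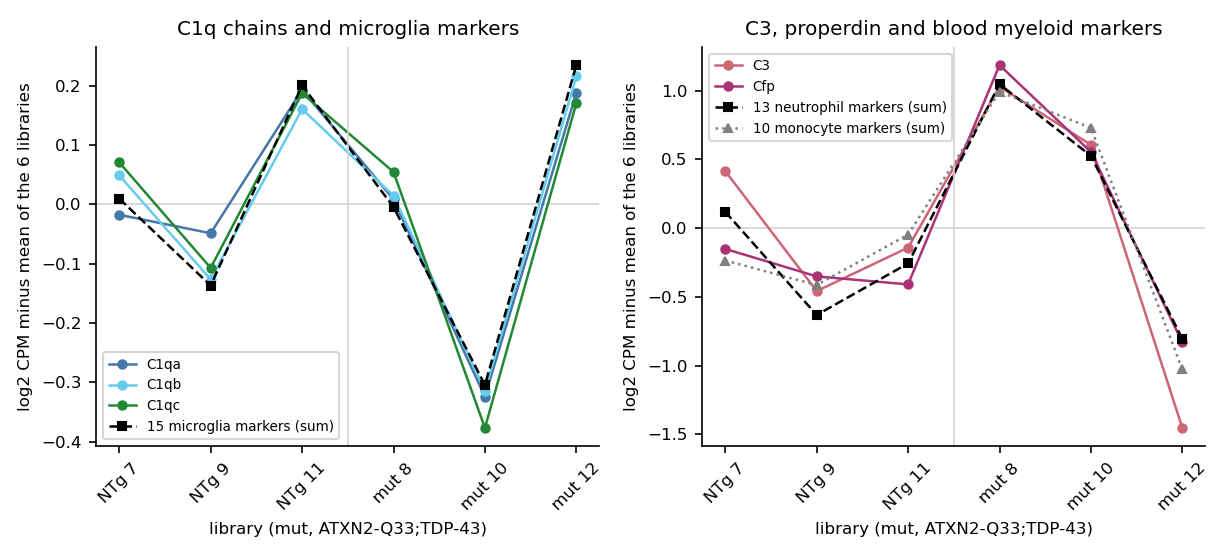
Level of complement genes and of marker sums relative to their own mean over the 6 libraries (log2 scale), by library. C3 and Cfp are highest in mutant library 8 and lowest in mutant library 12, as the neutrophil marker sum is, while the C1q chains are lowest in mutant library 10.

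C4b encodes mouse complement C4 and lies at chr17:34728380-34743882 on the minus strand (ENSMUSG00000073418). Its level was 18.7, 21.5 and 22.8 CPM in NTg versus 21.5, 18.3 and 19.7 CPM in mutant libraries. The groups overlapped within a narrow range, with a highest to lowest ratio of 1.24. The difference was a log2 fold change of -0.08 with an SE of 0.13 (95% interval from -0.38 to 0.21, edgeR adjusted p = 0.9996). C4b has a near-identical neighbour, C4a, whose gene lies 65209 bases away. Of the 5737 stretches of 50 bases in the C4b transcripts, 1983 (34.57%) also occur in C4a, and the other 8 genes shared none with any gene. Reads from the shared stretches can be lost or split, so the C4b level is uncertain. C4a itself had 78 counts over the 6 libraries, from 7 to 32 each, and was below the filter.

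C3ar1 encodes the receptor of the C3a fragment and lies at chr6:122847138-122856161 on the minus strand (ENSMUSG00000040552). Its level was 559, 552 and 544 CPM in NTg libraries and 490, 457 and 537 CPM in mutant libraries. Each mutant library lay below each NTg library, but library 12 by a small margin. Among all tested genes, 6.85% had groups that did not overlap, and 3.58% did so with the mutants lower. Its log2 fold change of -0.16 had an SE of 0.09 and an interval from -0.36 to 0.05 (unadjusted p 0.126, edgeR adjusted p = 0.9996). As a fold this is 0.898, with an interval from 0.777 to 1.04. The exact two-sided permutation p was 0.1, the smallest that 3 against 3 libraries can give. The log2 fold change stayed negative in each of the 16 alternatives tried, between -0.22 and -0.10. Its edgeR adjusted p was lowest, at 0.350, with a block of neighbouring sample codes, which the labels do not name as pairs. The unadjusted edgeR p was 0.0118 with that block, where 1401 of 16248 genes were below 0.05. Without mutant library 12 it was 0.0472 (edgeR adjusted p = 0.991).

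C5ar1 encodes the receptor of the C5a fragment and lies at chr7:16246743-16259540 on the minus strand (ENSMUSG00000049130). Its level was 163, 154 and 133 CPM in NTg versus 152, 140 and 148 CPM in mutant libraries. NTg supplied both the highest and the lowest library. Its log2 fold change of -0.03 had an SE of 0.10 and an interval from -0.25 to 0.18 (edgeR adjusted p = 0.9996), and became 0.026 without NTg library 7. Per length, C3ar1 exceeded C5ar1 by a ratio of 2.21 ± 0.204 in NTg and 2.02 ± 0.134 in the mutants (SD over n = 3 per group, exact two-sided permutation p = 0.3). Against the microglia markers, both receptors were lowest in libraries 11 and 12. Per 1000 marker CPM, C3ar1 was 33.2, 36.3 and 28.3 CPM in NTg versus 29.4, 33.7 and 27.3 CPM in mutant libraries. C5ar1 was 9.67, 10.2 and 6.94 CPM in NTg versus 9.10, 10.4 and 7.52 CPM in mutant libraries.

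Serping1 encodes the C1 inhibitor, which blocks the proteases bound to C1q. It lies at chr2:84765387-84775444 on the minus strand (ENSMUSG00000023224). It had 8, 7 and 8 counts in NTg and 13, 3 and 8 counts in the mutants, 47 in all. These are 0.490 ± 0.143 CPM and 0.528 ± 0.393 CPM (SD over n = 3 per group). At this depth no difference was detectable. Without the filter the log2 fold change was 0.11 (SE 0.85, edgeR adjusted p = 0.9998).

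Of the 8 complement genes tested, 6 had a negative and 2 a positive log2 fold change, with a median of -0.06. The 6 include the 3 C1q chains, which varied together. Over all tested genes 48% were negative and the median was 0.01. Among tested genes of at least 10 CPM, 53.8% were negative, with a median of -0.01. Of the 15 microglia markers 12 were negative, with a median of -0.045. edgeR called 0 of the 8, 0 had an unadjusted p below 0.05, and DESeq2 and limma voom also called 0. The 95% interval of each of the 8 includes 0. For genes with at least 10 CPM the median interval reached 0.290 log2 units to either side. Among the 8, C3ar1 and C5ar1 had narrower intervals than this and the other 6 had wider ones, with those of C3 and Cfp, which is below 10 CPM, the widest.

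**Figure D4:**
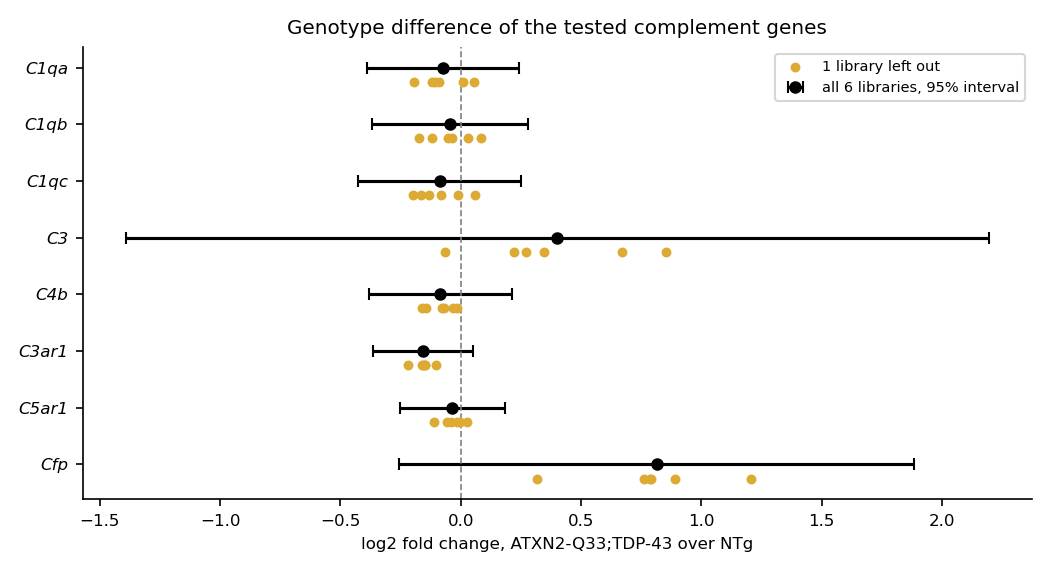
Log2 fold change of ATXN2-Q33;TDP-43 over NTg for the 8 tested genes, with the 95% interval from all 6 libraries in black and the values with 1 library left out in yellow. Each interval includes 0, and C3 runs from -1.39 to 2.20.

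Genes whose pattern over the 6 libraries was most like each member were found among 7755 genes, those of at least 10 CPM without predicted or clone-named gene models, microRNA genes and pseudogenes, by the root mean square difference of centred log2 CPM. The points share library depth and cell makeup, so this is a description. For C1qb the nearest were Csf1r (0.0176), which is itself among the microglia markers, Plxnb2 and Sipa1. For C1qc they were Rtn4rl1 (0.0254), Itgam (0.0295), the gene of the bead target, and Fam104a. For C1qa they were Tfg (0.0222), Ube3b and Lgmn. The chains were not each other's nearest genes: C1qb ranked 38 and C1qc 78 for C1qa, and C1qa ranked 37 and C1qb 10 for C1qc. The medians over all genes were 0.185 to 0.200 for the 3 chains.

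For C3 the nearest were Plbd1 (0.239), Cyfip2 and Cytip, at larger distances, and for Cfp they were Gsr (0.164), Mxd1 and Slc2a3. C3 ranked 57 for Cfp. For C4b they were Rps29 (0.0311), Tef and Rsu1, for C3ar1 Tmem206 (0.0171), Gcnt1 and Yeats2, and for C5ar1 Armc8 (0.0204), Tagln2 and Sys1. For Serping1, whose counts are low, Ccndbp1 (0.134), Hist1h3e and Cks2 were nearest.

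A further 59 genes of the pathway were listed, and 26 passed the filter. edgeR called 0 of them, and 3 had an unadjusted p below 0.05, where 2.26% of all tested genes did. A positive log2 fold change was seen for 15 and a negative one for 11, where 48% of all tested genes were negative, and the median was 0.06. DESeq2 and limma voom called 0. No counts in any library were seen for 14 of the 59, among them the terminal components C6, C7, C8a, C8b and C9. Hc, which encodes C5, had 37 counts, Cfb, which encodes factor B, had 25, and Cfd, which encodes factor D, had 2.

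Of 13 genes that start the classical and lectin pathways, 5 were tested. C1ra, a protease that binds C1q, stood at 1.54 ± 0.619 CPM in NTg versus 1.88 ± 0.192 CPM in mutant libraries. The log2 fold changes were 0.30 for C1ra, -0.11 for Masp1, a lectin pathway protease, 0.17 for Colec12, a collectin receptor, 1.07 for Fcnb, a ficolin, and -1.45 for Fcna, another ficolin. Fcnb followed the neutrophil order of libraries, with 3.38, 0.791 and 2.63 CPM in NTg versus 10.2, 4.003 and 0.260 CPM in mutant libraries. Fcna had few counts, 59 in all, and its groups did not overlap, with the mutants lower, as for 3.58% of all tested genes. Of the list with C2 and the alternative and terminal components, C2 alone was tested, at a log2 fold change of -0.76 (SE 0.64).

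Of 24 regulators, 11 were tested, 7 with a positive and 4 with a negative log2 fold change (median 0.24). Cr1l, the rodent membrane regulator Crry, had a log2 fold change of -0.12 (SE 0.13). Csmd3, a transmembrane protein with complement-control domains, stood at 187, 182 and 191 CPM in NTg versus 159, 122 and 163 CPM in mutant libraries. Those groups did not overlap, with the mutants lower, as for 3.58% of all tested genes. The log2 fold change of -0.34 had an SE of 0.12 (edgeR unadjusted p 0.0181, edgeR adjusted p = 0.9996). Cd55 (1.57, unadjusted p 0.0193) and Csmd1 (1.31, unadjusted p 0.0437) were the other pathway genes with an unadjusted p below 0.05 and were named after their values were seen. Both were highest in mutant library 10. The Csmd1 groups did not overlap either, with the mutants higher, as for 3.27% of all tested genes.

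Clu encodes clusterin, an inhibitor of the terminal complex. It stood at 9.26, 23.0 and 14.3 CPM in NTg versus 14.98, 68.3 and 25.8 CPM in mutant libraries, and its log2 fold change of 1.22 had an SE of 0.69 (edgeR adjusted p = 0.9996). With a block of neighbouring sample codes, a fit that called 0.437% of all genes, its adjusted p in edgeR was 0.0326. Library 10 was the highest, as it was for the summed ependymal markers, at 24.9, 43.5 and 27.6 CPM in NTg versus 37.0, 146 and 56.9 CPM in mutant libraries. The summed astrocyte, endothelial and mural markers were also highest in library 10. Astrocyte markers stood at 110, 145 and 136 CPM in NTg versus 120, 210 and 160 CPM in mutant libraries. The part of any of these cell types in the Clu values was not tested.

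Of 11 receptors, 9 were tested, 5 with a positive and 4 with a negative log2 fold change (median 0.03). Itgam and Itgb2 encode the chains of complement receptor CR3. Itgam stood at 1471 ± 146 CPM in NTg versus 1371 ± 234 CPM in mutant libraries, and Itgb2 at 625 ± 39.8 CPM and 619 ± 35.3 CPM. Their log2 fold changes were -0.10 (SE 0.14) and -0.01 (SE 0.09). Because CD11b was used for capture, the Itgam level describes the captured cells. Lrp1 and Calr, which take part in the uptake of C1q-bound material, showed 0.03 (SE 0.12) and 0.13 (SE 0.16) as log2 fold changes. Itgax, the alpha chain of receptor CR4, had the smallest p of this list, with a log2 fold change of -0.17 (SE 0.13, unadjusted p 0.209).

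**Figure D5:**
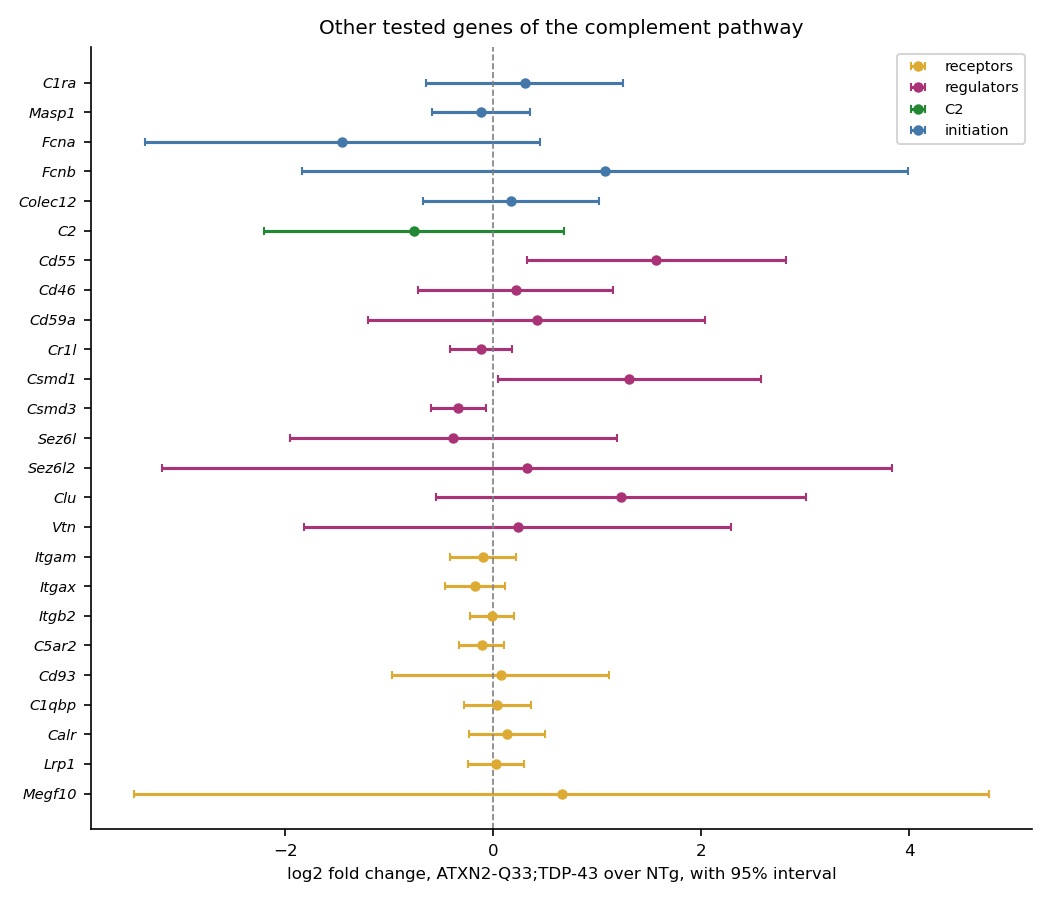
Log2 fold change of ATXN2-Q33;TDP-43 over NTg, with 95% interval, for 25 of the 26 tested genes of the pathway that are not among the 9, coloured by role. The intervals of Cd55, Csmd1 and Csmd3 leave out 0, and none of the 26 passed the adjusted threshold.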

How the data were processed

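Microglial RNA of 6 libraries, 3 per genotype, was analysed. The authors' deposited table holds raw counts of read pairs per gene, made with featureCounts 1.6.1 on GENCODE vM25 exons with strand setting 2, per the file headers; the exon length of each gene comes from the same table. The submitters' processing notes name Trim Galore 0.4.1, FastQC, TopHat2, DESeq2 and the build mm10. Per the labels' protocols, ribosomal RNA was depleted and a stranded low-input kit was used. Not used were 6 columns that belong to other samples. Of 55401 identifiers, 55141 matched a symbol and 260 did not. Transcript stretches come from GENCODE vM21.

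Counts were filtered with filterByExpr (minimum count 10), scaled by TMM and tested with edgeR 4.0.16 (robust quasi-likelihood fit, R 4.3.3) without covariates, and p-values were adjusted by Benjamini-Hochberg over 16248 genes with 0.05 as the threshold. edgeR estimated a common biological coefficient of variation of 0.261. For the exact permutation tests, which were two-sided, the values of a gene were log2(CPM + 0.5), and quotients were used as they are. Intervals are 95% intervals and cover the spread between pools. DESeq2 1.42.0 and limma 3.58.1 were alternatives, as were other scalings, filters and left-out libraries. The fit was tested on simulated data with 200 changed genes. Those genes lay above 10 CPM, and their changes were larger than those fitted for the members over all 6 libraries. That test therefore does not bear on smaller differences or lower counts.

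All 9 members are described. Of the other pathway genes, the text names C4a and Itgam, genes past the threshold, up to 4 tested genes per list with the highest CPM and the one with the smallest p, except 1 regulator that is not reported here; of the likeness ranking it names the first 3 genes per member. Others named by count (Hc, Cfb, Cfd, the terminal components, Cd55, Csmd1) were chosen after their values were seen. The members and lists were chosen with earlier results of these data known.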

Additional observations from a re-analysis of the deposited data

How the results depend on the processing

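The labels name no pairs, since the replicate numbers 7, 9 and 11 of NTg and 8, 10 and 12 of ATXN2-Q33;TDP-43 are not shared; a block of neighbouring sample codes was fitted as an alternative. None of the 8 tested genes was called in any of the 16 alternatives. Over all genes, 7 were called by DESeq2, 6 without a filter, 1 with NTg 9 and mutant 10 both left out, 71 with that block, and 0 to 2 with 1 library left out. With the block Clu was the 1 other pathway gene called (log2 fold change 1.07, edgeR adjusted p = 0.0326). The median log2 fold change of the tested members was -0.13 to 0.056 with 1 library left out. Small differences changed sign. C5ar1 was 0.011 with scaling by microglia markers and 0.022 without NTg 9 and mutant 10. It was 0.14 with a covariate for the combined alignments of NTg 7 and 9, a fit in which the NTg side rests on NTg 11 alone. C1qa was 0.014 and C1qb 0.017 without NTg 9 and mutant 10. With 1 library left out, C1qa ran from -0.19 to 0.054, C1qb from -0.17 to 0.086, C1qc from -0.20 to 0.058, C5ar1 from -0.11 to 0.026 and C3 from -0.067 to 0.85. The log2 ratio of C1qb to C1qa was 0.21 in CPM without length, and that of C1qc to C1qa was 0.067 in CPM and -0.14 with coding transcript lengths, an alternative chosen after seeing the data. C3ar1, C4b and Cfp kept their direction in all 16. With 3 libraries a group, differences smaller than the intervals given were not detectable. A call asked for more than that, as the 95% interval of 368 of 16248 genes left out 0 and 0 genes were called. The cause of these shifts was not tested.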
